A study of Mus musculus with 2 samples.

Results

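The interleukin-6 (IL-6) family genes described here were the ligands Il6, Il11, Osm and Lif, the receptor chains Il6ra, Il6st, Osmr and Lifr, the transcription factor Stat3 and the feedback inhibitor Socs3. They were taken by symbol, and all 10 of 10 were found among the 32285 genes of the files. Their unique molecular identifiers (UMIs, 1 per captured RNA molecule) were followed across cell classes gated on marker genes and between MSA-2–treated and untreated MC38 tumors. MC38 is a colon adenocarcinoma line of C57BL/6 mice, and MSA-2 is a small-molecule agonist of the stimulator of interferon genes (STING), the adaptor that couples cytosolic DNA sensing to interferon and NF-κB–driven transcription. The tumors grew under the skin of C57BL/6 mice aged 6 to 8 weeks and received 3 intratumoral doses, 1 every 3 days, of MSA-2 or of vehicle, and were collected on day 7. The library labelled untreated is the negative control, which by the design text received the vehicle (saline with 10% DMSO); the MSA-2 dose was not given in the sources used here. Tumors of 3 mice per condition were pooled into 1 10x Genomics 3′ library. With 1 library per condition there was no replicate error, so no difference was tested. Intervals given are exact 95% intervals that cover counting error only.

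Cytokines of this family share the signal-transducing chain gp130, encoded by Il6st. IL-6 and IL-11 first bind a private chain (Il6ra, Il11ra1) and then gp130, whereas oncostatin M pairs gp130 with Osmr, and leukemia inhibitory factor (LIF) pairs it with Lifr. Because Il6st is broadly expressed, the private chain largely sets which cell can answer which ligand. Receptor engagement activates JAK kinases and STAT3, which switches on Socs3, whose product binds gp130 and the JAKs and shuts the signal down. In tumors, stromal cells and myeloid cells are known sources of IL-6, myeloid cells of oncostatin M, and carcinoma cells and fibroblasts of IL-11 and LIF.

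The 250 bases before the transcription start are shown for the 4 members that were at least 2-fold higher in the MSA-2 library over all cells (Il6, Il11, Lif and Osmr) and for Socs3, the feedback gene of the pathway. Sequences are from RefSeq (GRCm38.p6, the mm10 build that the submitters' notes name), which held a promoter for 9 of the 10 members and not for Osm. Capitals mark matches, on either strand, to TTCNNNGAA (the STAT dimer motif), GGNNTTTCC (a κB-type motif) or TGANTCA (the AP-1 motif). No position was shared by more than 1 motif. The RefSeq starts of Il11 (the second of 2 annotated), Lif, Osmr and Socs3 lie inside the spans that GENCODE vM21 (mm10) gives these genes, so their windows overlap the spans. Gene coordinates below are from GENCODE vM21.
Il6 (chr5:30012864-30013113, plus strand): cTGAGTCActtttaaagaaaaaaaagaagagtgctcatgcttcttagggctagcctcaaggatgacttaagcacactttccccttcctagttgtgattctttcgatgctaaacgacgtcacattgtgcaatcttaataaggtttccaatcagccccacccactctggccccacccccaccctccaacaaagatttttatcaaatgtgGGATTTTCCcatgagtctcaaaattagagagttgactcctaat
Il11 (chr7:4778142-4778391, minus strand): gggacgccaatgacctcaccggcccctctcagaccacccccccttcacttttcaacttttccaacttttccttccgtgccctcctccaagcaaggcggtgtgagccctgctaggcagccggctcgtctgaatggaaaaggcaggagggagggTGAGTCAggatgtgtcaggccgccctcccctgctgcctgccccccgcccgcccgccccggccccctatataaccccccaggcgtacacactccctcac
Lif (chr11:4257318-4257567, plus strand): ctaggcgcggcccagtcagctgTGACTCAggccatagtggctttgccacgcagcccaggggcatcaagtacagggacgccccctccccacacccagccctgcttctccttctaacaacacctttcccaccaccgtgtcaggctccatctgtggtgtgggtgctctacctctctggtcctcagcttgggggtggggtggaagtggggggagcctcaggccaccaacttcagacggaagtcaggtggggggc
Osmr (chr15:6874314-6874563, minus strand): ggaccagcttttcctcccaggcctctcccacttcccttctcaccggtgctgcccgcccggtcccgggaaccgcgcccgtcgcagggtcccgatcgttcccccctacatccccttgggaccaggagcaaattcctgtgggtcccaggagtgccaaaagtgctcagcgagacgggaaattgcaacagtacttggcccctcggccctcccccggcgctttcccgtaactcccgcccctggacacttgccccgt
Socs3 (chr11:117969367-117969616, minus strand): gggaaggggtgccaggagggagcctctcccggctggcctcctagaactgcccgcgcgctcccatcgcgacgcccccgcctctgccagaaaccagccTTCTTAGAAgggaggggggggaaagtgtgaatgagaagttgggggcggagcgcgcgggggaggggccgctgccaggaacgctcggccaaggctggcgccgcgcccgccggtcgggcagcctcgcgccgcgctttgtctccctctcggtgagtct

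The Il6 window held GGATTTTCC, 43 to 35 bases before the start, and an AP-1 match. Il11 and Lif each held 1 AP-1 match, and Socs3 held the STAT match TTCTTAGAA, 154 to 146 bases before the start. The Osmr window held none of the 3 motifs, nor did those of Il6ra, Il6st, Lifr and Stat3 or the other Il11 start. Over all 32851 windows of this length in the table, 7.02% held the STAT motif, 4.93% the κB-type motif and 6.75% the AP-1 motif. A match is a description of the letters and not a bound site. Osm and Lif are neighbors on chromosome 11, separated by 16530 bases.

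The files held 14386 untreated and 14617 MSA-2 barcodes, the same numbers of cells as the study states, of which 53 sequences occurred in both libraries. After filtering and doublet removal, 13334 and 13346 cells remained, with median depths of 8291 and 9223 UMIs. Although the methods describe immune cells, the tumor class held 47.4% and 51.1% of the cells. The keratins and Epcam were near 0 in this class (Krt8, 0.151 and 0.261 UMIs per 1000000, hereafter CPM), which was defined by Gng11, Anxa1 and Ccn1 (each in over 90% of its cells) and little Ptprc, the pan-leukocyte gene. It is called tumor-like for that reason. Fibroblast-like cells numbered 264 and 665, macrophage-like cells 3620 and 1116, Ly6c2 monocyte-like cells 526 and 889, T/NK-like cells 1468 and 264, and endothelial-like cells 61 and 76. Neutrophil-like cells were 33 and 2700, dendritic-like cells 234 and 19, and mural-like cells (pericytes and vascular smooth muscle) 21 and 15. These last 3 classes had fewer than 50 cells in at least 1 library and were described without being counted.

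Some gates cut across continua. Of the fibroblast-like cells, 54 and 98 lay within 25% above the cut, and 77 and 98 fell in tumor-like clusters when the cells were clustered without the members. Monocyte-like and macrophage-like cells were placed in different clusters in the 2 libraries. Only 2 of the 526 untreated monocyte-like cells lay in the monocyte cluster (cluster 7), and 428 of the 1116 MSA-2 macrophage-like cells lay in macrophage clusters (4, 5, 11 and 16). For some members, values are therefore also given with these 2 gates joined, or for gated fibroblasts inside the fibroblast cluster. Both were chosen after the data were seen.

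Over all cells, the family's ligand RNA was higher in the MSA-2 library, led by Il6, whereas the levels of Stat3, Socs3 and Il6ra were close between the libraries. Il6 gave 1589 UMIs (8.66 CPM) without treatment and 14748 (77.4 CPM) with MSA-2, which is a log2 ratio, MSA-2 over untreated, of 3.16 (3.08 to 3.23). Lif stood at 20.6 and 67.9 CPM (log2 ratio 1.72, 1.67 to 1.78), and Il11 at 7.58 and 18.3 CPM (1.27, 1.18 to 1.36). Osmr, the receptor chain for oncostatin M, stood at 34.0 and 96.1 CPM (1.5, 1.46 to 1.54). Less than 2-fold higher were Il6st (0.72, 0.68 to 0.76), Osm (0.66, 0.61 to 0.71) and Lifr (0.32, 0.17 to 0.48). Stat3 had a log2 ratio of 0.15 (0.13 to 0.17), Socs3 of 0.05 (0.03 to 0.07) and Il6ra of -0.01 (-0.07 to 0.05). Thus 4 of the 10 members were at least 2-fold higher, against 11.1% of 19497 genes with at least 20 UMIs over both libraries, and none was at least 2-fold lower, against 8.38% of genes. Under a stricter cell filter (1000 genes or more, mitochondrial share up to 10%), the Osm ratio was -0.35, on the other side of 0. With equal weight per cell it was 1.78, past 2-fold, and the Stat3 and Socs3 ratios were -0.28 and -0.11, on the other side of 0. In these sums, more cells of a class and more RNA per cell cannot be told apart, so the members were next followed within classes.

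**Figure D1:**
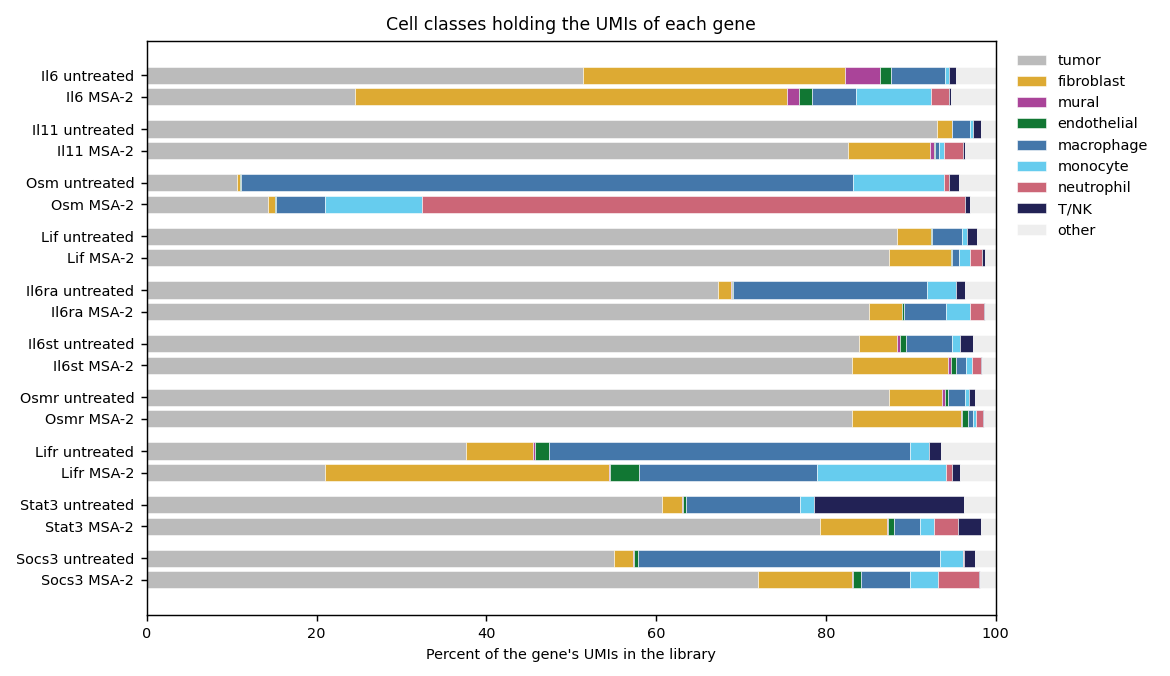
Percent of each gene's UMIs held by each cell class, with 1 bar per gene and library (other: dendritic, mast, B, ambiguous and ungated cells). In MSA-2 tumors, fibroblast-like cells held 50.9% of Il6 UMIs and neutrophil-like cells 63.9% of Osm UMIs, while Lif, Il11, Il6st and Osmr UMIs lay mostly in tumor-like cells in both libraries.

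Il6 (ENSMUSG00000025746, chr5:30013114-30019981) encodes the founding cytokine of the family. In untreated tumors, 51.4% of its UMIs lay in the numerous tumor-like cells and 30.9% in fibroblast-like cells, and in MSA-2 tumors 24.6% and 50.9%. The level per UMI was highest in mural-like cells (379 CPM untreated, 1621 CPM MSA-2, from only 65 and 207 UMIs). It was next highest in fibroblast-like cells, at 138 CPM (126 to 151) and 758 CPM (741 to 775), a log2 ratio of 2.45 (2.32 to 2.59). Inside the fibroblast cluster the values were 199.6 and 880.2 CPM, a log2 ratio of 2.14 (2.01 to 2.28). Thinned to 1500 UMIs per cell, 14.1% of untreated and 54.7% of MSA-2 fibroblast-like cells had an Il6 UMI (42.8% and 84.7% unthinned). Il6 was uneven among them: the tenth of cells with the most UMIs held 60.1% of the class's Il6 UMIs in untreated tumors and 31.9% in MSA-2 tumors, where a single cell reached 83.

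The widest ratios for Il6 were in mononuclear phagocytes, where it was scarce in untreated tumors. Monocyte-like cells had 8 UMIs (3.75 CPM) without and 1304 UMIs (411 CPM) with MSA-2, and macrophage-like cells 101 UMIs (4.78 CPM) and 779 UMIs (136 CPM). The log2 ratios were 6.78 (5.79 to 7.99) and 4.83 (4.53 to 5.14). With the gates joined, Il6 stood at 4.69 and 234 CPM, a log2 ratio of 5.64 (5.36 to 5.93). After thinning, 0.392% of untreated and 37.4% of MSA-2 monocyte-like cells had an Il6 UMI (1.52% and 53.2% unthinned). Endothelial-like cells stood at 37.0 and 237 CPM (2.68, 2.03 to 3.40). With equal weight per cell, the endothelial-like log2 ratio was 1.88. 

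T/NK-like cells had been set as the class expected to lack Il6, so that their UMIs give the background: 2.01 and 18.9 CPM, or 0.00817 and 0.110 UMIs per cell, with 0.142% and 2.42% of thinned cells holding a UMI (0.749% and 7.58% unthinned; median depth 3439.5 and 4910.5). Tumor-like cells of MSA-2 tumors, at 22.5 CPM, had overlapping intervals with T/NK-like cells (21.8 to 23.3 against 12.7 to 27.2), and 3.44% of them held a UMI after thinning. On the scale of UMIs per cell they were higher, at 0.532, with a median depth of 20409.5. Without treatment they stood at 5.62 CPM (5.24 to 6.02), above T/NK-like cells (1.04 to 3.51), and 4.01-fold below their MSA-2 level. Both tumor-like values average over clusters that differed in Il6, given below. Neutrophil-like cells of MSA-2 tumors held 310 UMIs (54.4 CPM, 0.115 UMIs per cell). The 33 untreated ones held none, which allows up to 65.0 CPM, so a difference in CPM was not detectable at this depth.

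**Figure D2:**
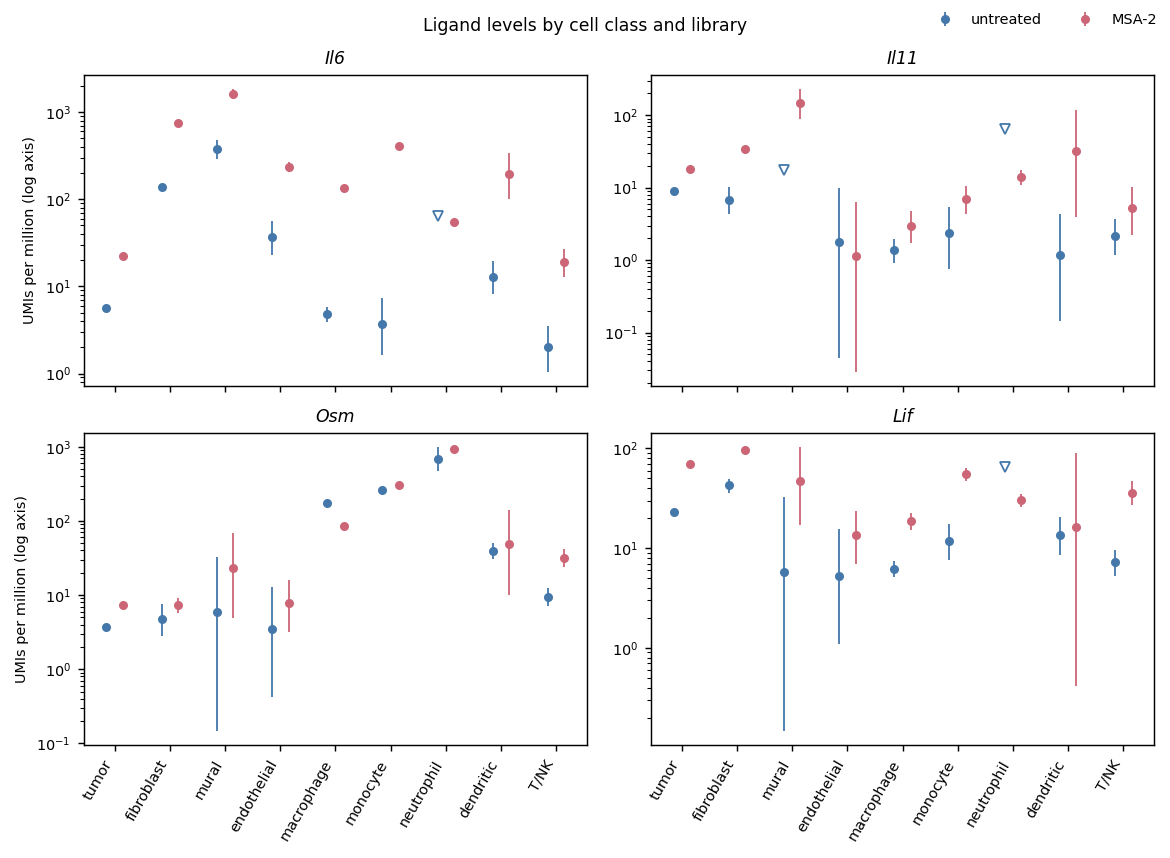
Levels of the 4 ligands in CPM (log axis) by cell class in the untreated and MSA-2 libraries. Bars are exact 95% Poisson intervals, and open triangles give the upper limit that a count of 0 allows; Il6 spans 2.01 CPM in untreated T/NK-like cells to 1621 CPM in MSA-2 mural-like cells.

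Lif (ENSMUSG00000034394, chr11:4257557-4272514), a cytokine known for holding stem cells undifferentiated, had most of its UMIs in tumor-like cells. Tumor-like cells held 88.4% of its UMIs without and 87.4% with MSA-2, at 22.9 and 70.3 CPM, a 3.06-fold difference (log2 ratio 1.62, 1.56 to 1.67). Thinned, 4.0% and 11% of tumor-like cells had a UMI (29.6% and 55.5% unthinned). Fibroblast-like cells had higher levels in both libraries, 42.6 and 95.5 CPM (1.17, 0.92 to 1.42), but the ratio was under 2-fold inside the fibroblast cluster (0.61, 0.35 to 0.89). Monocyte-like cells stood at 11.7 and 54.8 CPM (2.23, 1.62 to 2.89). Of the background classes, T/NK-like cells differed between the libraries in the same direction, at 7.20 and 35.9 CPM (0.0293 and 0.208 UMIs per cell). MSA-2 neutrophil-like cells had 30.4 CPM. The 33 untreated ones held no Lif UMI, which allows up to 65.0 CPM, so no direction is given for them. The thinned share of MSA-2 monocyte-like cells with a Lif UMI, 6.21%, was no higher than that of T/NK-like cells, 8.47%, whereas their CPM intervals did not overlap (47.0 to 63.6 against 27.0 to 46.7).

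Il11 (ENSMUSG00000004371, chr7:4772373-4782859), a cytokine linked to fibrosis and epithelial growth, was also mostly in tumor-like cells (93.1% and 82.6% of its UMIs). Its level there was 8.91 CPM (8.43 to 9.41) without and 17.9 CPM (17.2 to 18.5) with MSA-2. That log2 ratio, 1.0 (0.91 to 1.10), sat on the 2-fold line. It was unevenly spread, since the tenth of tumor-like cells with the most UMIs held 80.8% of the class's Il11 UMIs in MSA-2 tumors, and a single cell held 104. Fibroblast-like cells had 24 UMIs (6.76 CPM) and 336 UMIs (33.9 CPM), a log2 ratio of 2.33 (1.73 to 2.99). Inside the fibroblast cluster, with 9 and 261 UMIs, it was 3.01 (2.06 to 4.16), and under stricter gates 3.61. These UMIs too were uneven, the tenth of MSA-2 fibroblast-like cells with the most holding 94.0%. In mural-like cells, 19 UMIs were seen in MSA-2 tumors, 10 of them in 1 cell, and none in untreated tumors. Macrophage-like and monocyte-like cells had 17 and 22 UMIs with MSA-2 and 29 and 5 without. Of the 79 UMIs in MSA-2 neutrophil-like cells, 40 came from 1 cell, and T/NK-like cells stood at 2.18 and 5.22 CPM.

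Osm (ENSMUSG00000058755, chr11:4236420-4241026) encodes oncostatin M, a cytokine released by activated myeloid cells. Its RNA lay in macrophage-like cells in untreated tumors and in neutrophil-like cells in MSA-2 tumors. Macrophage-like cells held 72.1% of the untreated library's Osm UMIs and 5.73% of the MSA-2 library's, whereas neutrophil-like cells held 0.624% and 63.9%. Per UMI, neutrophil-like cells had the highest level in both libraries, 694 CPM (475 to 979, from 32 UMIs) and 945 CPM (919 to 970.1). These 2 intervals overlapped. Per cell, the 33 untreated neutrophil-like cells had 0.970 Osm UMIs (0.663 to 1.37) and the MSA-2 ones 1.99 (1.94 to 2.05), intervals that did not overlap, with median depths of 1292 and 1817 UMIs. Monocyte-like cells followed, at 258 and 305 CPM (0.24, 0.09 to 0.39). Macrophage-like cells had 175 and 84.2 CPM, a log2 ratio of -1.06 (-1.20 to -0.92), and 19.6% and 11.4% of them held a UMI after thinning (44.0% and 24.6% unthinned). That difference depended on the line between macrophages and monocytes: with the gates joined, Osm stood at 183 and 163 CPM, a log2 ratio of -0.17 (-0.25 to -0.08), whereas with classes from clusters the macrophage ratio was -1.73.

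Tumor-like cells, the background class for Osm, had 3.76 and 7.43 CPM, and 0.619% and 1.20% held a UMI after thinning (7.81% and 14.1% unthinned). Fibroblast-like and endothelial-like cells of MSA-2 tumors had like levels, 7.37 and 7.86 CPM. The Osm levels of tumor-like and T/NK-like cells (9.55 and 32.0 CPM) differed between the libraries together with the neutrophil marker list. The median of that list was 0 and 4.21 UMIs per 10000 in tumor-like cells, and 0 and 5.10 in T/NK-like cells, against 278 and 910.4 in neutrophil-like cells. Its part in these Osm values was not tested.

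Among the receptors, Il6ra (ENSMUSG00000027947, chr3:89864059-89913196), the IL-6–binding chain, was not higher in any compared class by as much as 2-fold. Monocyte-like cells had the highest untreated level of the compared classes, 71.2 CPM, against 41.0 CPM in MSA-2 tumors (-0.80, -1.15 to -0.45). Macrophage-like cells stood at 48.2 and 40.0 CPM (-0.27, -0.48 to -0.06). Fibroblast-like cells had 71 and 178 UMIs, and the interval of their log2 ratio spans 0 (-0.15, -0.56 to 0.26). Tumor-like cells, which had been set as the class expected to lack Il6ra, held 67.3% and 85.1% of its UMIs, at 20.6 and 24.3 CPM (0.24, 0.17 to 0.31). At 0.574 UMIs per cell in MSA-2 tumors they were above T/NK-like (0.0227) and neutrophil-like cells (0.0267). Median depths of these 3 classes differed, at 20409.5, 4910.5 and 1817 UMIs. In CPM, MSA-2 T/NK-like and neutrophil-like cells stood at 3.92 and 12.6. Thinned shares were 4.14% in tumor-like, 0.403% in T/NK-like and 1.43% in neutrophil-like cells. T/NK-like cells had 50 and 6 UMIs, and the interval of their log2 ratio also spans 0 (-1.10, -2.61 to 0.13).

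Il6st (ENSMUSG00000021756, chr13:112464070-112510086), the shared gp130 chain, was higher in stroma and tumor-like cells than in macrophage-like, monocyte-like and T/NK-like cells. Its untreated and MSA-2 levels were 146 and 274 CPM in mural-like cells, 105 and 161 in fibroblast-like cells, 109 and 104 in endothelial-like cells, and 47.3 and 72.3 in tumor-like cells. Macrophage-like, monocyte-like and T/NK-like cells lay between 13.7 and 34.7 CPM over both libraries. The log2 ratio was 0.61 (0.57 to 0.66) in tumor-like and 0.61 (0.44 to 0.77) in fibroblast-like cells, and the interval spans 0 in endothelial-like (-0.55 to 0.42) and monocyte-like cells (-0.52 to 0.37).

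Osmr (ENSMUSG00000022146, chr15:6813577-6874969) showed the widest difference of the receptor chains over all cells, and its value was higher in the MSA-2 library in each of the 6 classes compared, least in monocyte-like cells (0.68, 0.06 to 1.32). Tumor-like cells had 37.5 CPM (36.5 to 38.5) and 94.5 CPM (93.0 to 96.0), a log2 ratio of 1.33 (1.29 to 1.38), and held 87.4% and 83.1% of the UMIs. Fibroblast-like cells had 109 and 236 CPM (1.11, 0.96 to 1.27), and inside the fibroblast cluster the log2 ratio was 0.99 (0.82 to 1.17). Endothelial-like cells had 22 UMIs (38.8 CPM) and 124 UMIs (139 CPM), a log2 ratio of 1.84 (1.18 to 2.57). In leukocytes the gene was low, with 6.02 and 19.0 CPM in macrophage-like and 6.70 and 15.7 CPM in T/NK-like cells, the background class (0.0977 and 0.0909 UMIs per cell in MSA-2 tumors). The macrophage-like level is therefore read as background. In tumor-like and fibroblast-like cells, 14.9% and 28.8% of thinned MSA-2 cells held a UMI (73.0% and 85.0% unthinned), against 1.61% of T/NK-like cells (6.44% unthinned).

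Lifr (ENSMUSG00000054263, chr15:7090614-7197489), the LIF receptor chain, was the scarcest member by UMIs (602 and 783) and differed in direction among classes. Macrophage-like cells had 12.1 and 28.7 CPM (1.24, 0.95 to 1.53), and monocyte-like cells 14 UMIs (6.56 CPM) and 119 UMIs (37.5 CPM). The monocyte-like log2 ratio was 2.52 (1.71 to 3.43), and 1.45 (1.21 to 1.70) with the gates joined. With classes taken from clusters, where only 22 untreated cells were monocytes, it was 0.06. Fibroblast-like cells stood at 13.5 and 26.5 CPM (0.97, 0.52 to 1.44). Tumor-like cells were at 1.56 and 1.02 CPM (-0.61, -0.91 to -0.31), and MSA-2 neutrophil-like and T/NK-like cells at 1.05 and 4.57 CPM. Untreated T/NK-like cells were at 1.34 CPM. Per cell, tumor-like cells had 0.0358 and 0.0241 Lifr UMIs, T/NK-like cells 0.00545 and 0.0265, and MSA-2 neutrophil-like cells 0.00222.

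**Figure D3:**
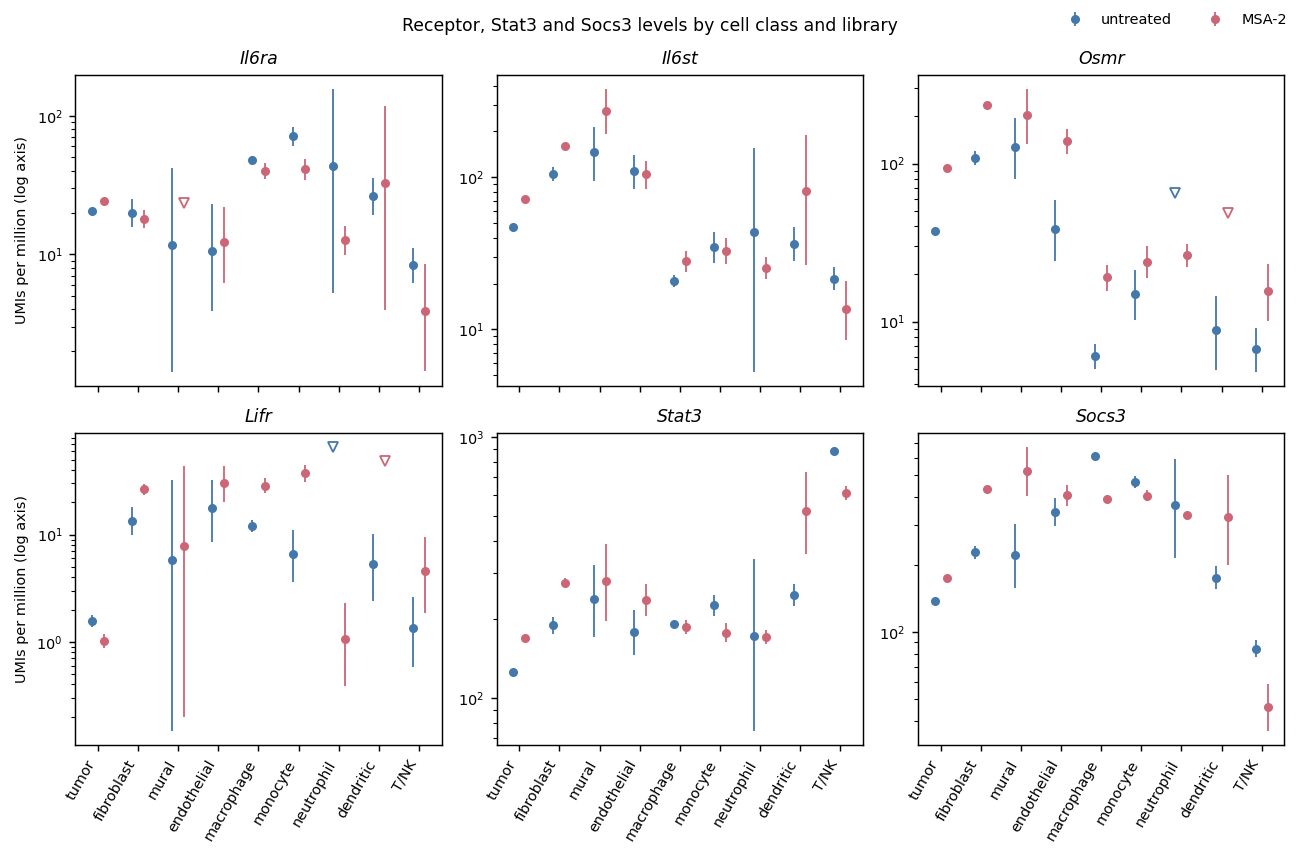
Levels of the receptor chains, Stat3 and Socs3 in CPM (log axis) by cell class and library, with exact 95% Poisson intervals and open triangles for the limit that a count of 0 allows. Osmr is higher in the MSA-2 library in tumor-like, fibroblast-like and endothelial-like cells, while Socs3 is lower in macrophage-like cells (611 and 391 CPM) and higher in fibroblast-like cells (227 and 435 CPM).

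Stat3 (ENSMUSG00000004040, chr11:100885098-100939540), the transcription factor that the family activates by phosphorylation, was detected in all classes, and its RNA says nothing of its phosphorylation. It was highest in T/NK-like cells, at 887 CPM without and 610.4 CPM with MSA-2 (-0.54, -0.64 to -0.44). Per cell the T/NK-like values were close, 3.61 and 3.54 UMIs, with median depths of 3439.5 and 4910.5. Tumor-like cells stood at 125 and 170.1 CPM (0.44, 0.41 to 0.47) and fibroblast-like cells at 190.2 and 276 CPM (0.54, 0.42 to 0.66). In macrophage-like cells the interval spans 0 (-0.13 to 0.06). No class compared reached 2-fold.

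Socs3 (ENSMUSG00000053113, chr11:117966079-117970047), whose promoter window above held the STAT match, encodes the inhibitor that ends gp130 signaling. It also differed in direction among classes. Macrophage-like cells, which had the highest untreated level, stood at 611 and 391 CPM (-0.64, -0.71 to -0.58), with a joined macrophage and monocyte ratio of -0.59 (-0.65 to -0.54). T/NK-like cells had 84.2 and 46.4 CPM (-0.86, -1.24 to -0.50). Fibroblast-like cells had 227 and 435 CPM (0.94, 0.83 to 1.05), mural-like cells 221 and 525 CPM (from 38 and 67 UMIs), and tumor-like cells 138 and 174 CPM (0.34, 0.32 to 0.37). MSA-2 neutrophil-like cells, the class with most Osm, had 332 CPM. In both fibroblast-like and tumor-like cells, Il6, Osmr, Il6st, Stat3 and Socs3 lay higher in the MSA-2 library with intervals of the ratio clear of 0. Il11 and Lif did so too. Lifr was lower in tumor-like cells (-0.61), and the fibroblast-like intervals of Osm and Il6ra span 0. The share of all genes with such intervals is not given here.

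**Figure D4:**
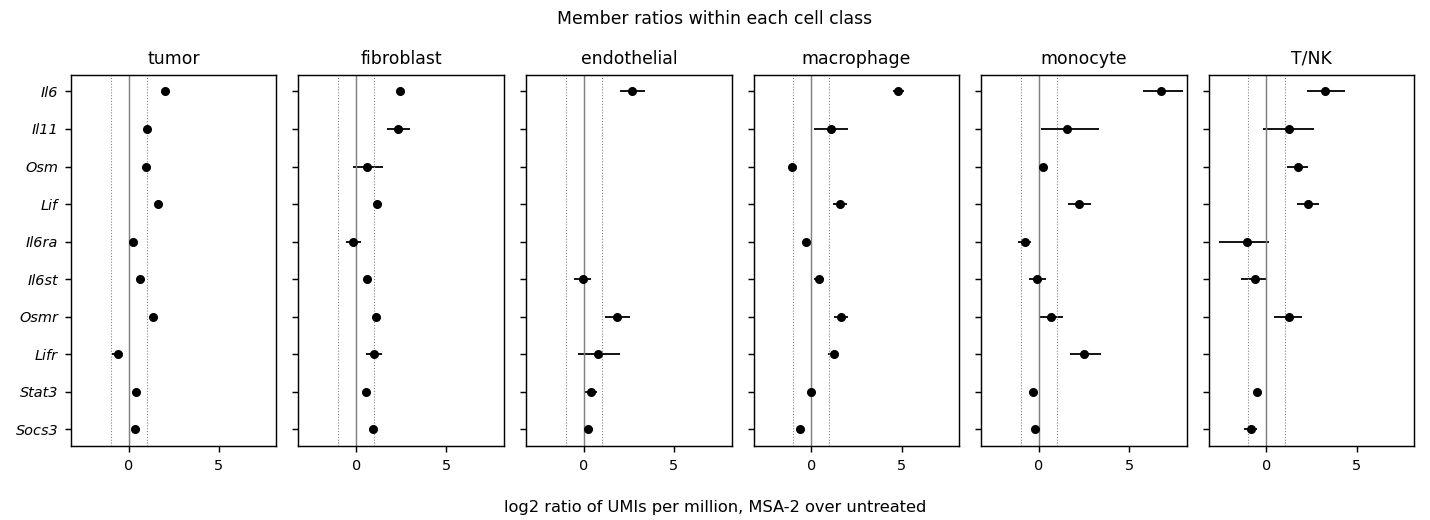
Log2 ratio of CPM, MSA-2 over untreated, for each gene within 6 cell classes, with exact 95% intervals (counting error only); dotted lines mark 2-fold, and genes with fewer than 20 UMIs over both libraries are not drawn. Il6 lies to the right of the 2-fold line in all 6 classes, and Socs3 lies left of 0 in the macrophage, monocyte and T/NK classes.

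Counted by class, 4 of 10 members were at least 2-fold higher in tumor-like cells (Il6, Il11, Lif and Osmr), against 11.6% of 18146 genes, and none was 2-fold lower (5.9% of genes). Il11 was under 2-fold there with TMM scaling (0.94), without a cell filter, with doublets kept and with classes from clusters, which leaves 3 of 10. The same 4 were 2-fold higher in fibroblast-like cells, against 7.73% of 12444 genes, with none lower (7.8%), but inside the fibroblast cluster 2 of them, Lif and Osmr, were under 2-fold (0.61 and 0.99). In endothelial-like cells, 2 of the 6 members with at least 20 UMIs were higher (Il6 and Osmr), against 6.54% of genes, with none lower (7.31%). In macrophage-like cells, 5 of 10 were higher (Il6, Il11, Lif, Osmr and Lifr), against 7.34%, and 1 was lower (Osm), against 7.78%. Of these 5, Il11 and Lif had MSA-2 levels in macrophage-like cells (2.97 and 18.7 CPM) below those of T/NK-like cells, and Osmr was read as background. The Il11 ratio was 0.55 without a cell filter and 0.57 with doublets kept, under 2-fold in both. In monocyte-like cells, 4 of 10 were higher (Il6, Il11, Lif and Lifr), against 11.4%, and none was lower (10.3%). However, the Il11 ratio there was -0.21 with doublets kept, and the Lifr ratio 0.06 with classes from clusters. The thinned share of monocyte-like cells with Lif was no higher than in T/NK-like cells. Their MSA-2 Il11 level (6.93 CPM, 4.34 to 10.5) overlapped that of T/NK-like cells (5.22 CPM, 2.25 to 10.3), with thinned shares of 0.776% and 0.806%. In T/NK-like cells, 5 of 9 were higher (Il6, Il11, Osm, Lif and Osmr), against 5.53%, and Il6ra was lower (9.2% of genes). T/NK-like cells are the background class for 4 of these 5 (Il6, Il11, Lif and Osmr). For Osm, their 0.186 UMIs per cell in MSA-2 tumors were near the 0.175 of tumor-like cells, its background class. Median depths were 4910.5 and 20409.5 UMIs. In CPM, T/NK-like cells were higher for Osm (32.0, 23.7 to 42.3) than tumor-like cells (7.43, 7.01 to 7.86). Their thinned share was also higher, 3.63% against 1.20%. The median log2 ratio of the members tested was 1.23 in T/NK-like, 0.95 in fibroblast-like, 0.80 in tumor-like, 0.77 in macrophage-like, 0.59 in endothelial-like and 0.46 in monocyte-like cells. That of all genes lay between -0.20 and 0.07. The highest member median was thus in T/NK-like cells.

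Tumor-like cells were not uniform, and their clusters separated largely by library. Clusters 0, 1 and 2 held mostly untreated cells and clusters 3, 8, 9 and 13 mostly MSA-2 cells. Lif ranged from 14.6 CPM (cluster 2, led by H2-Eb1 and Cd74) to 38.7 CPM (cluster 1, led by Aspn and Enpp2) among the untreated clusters. It ranged from 29.1 CPM (cluster 3, led by Car6) to 148 CPM (cluster 13, led by Glis3 and Pcdh9) among the MSA-2 clusters, so that cluster 3 lay below cluster 1. Il11 had its highest level in the same cluster 13 (32.1 CPM), against 6.25 to 13 CPM in the untreated clusters, and so had Il6st (114 CPM) and Stat3 (241 CPM). Osmr was highest in cluster 8 (169 CPM, led by the interferon-induced genes Rsad2, Oasl1 and Ifih1) and Socs3 also (232 CPM), although the untreated cluster 1 was near it for Socs3 (211 CPM). Il6 did not exceed 36.3 CPM in any of these clusters.

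**Figure D5:**
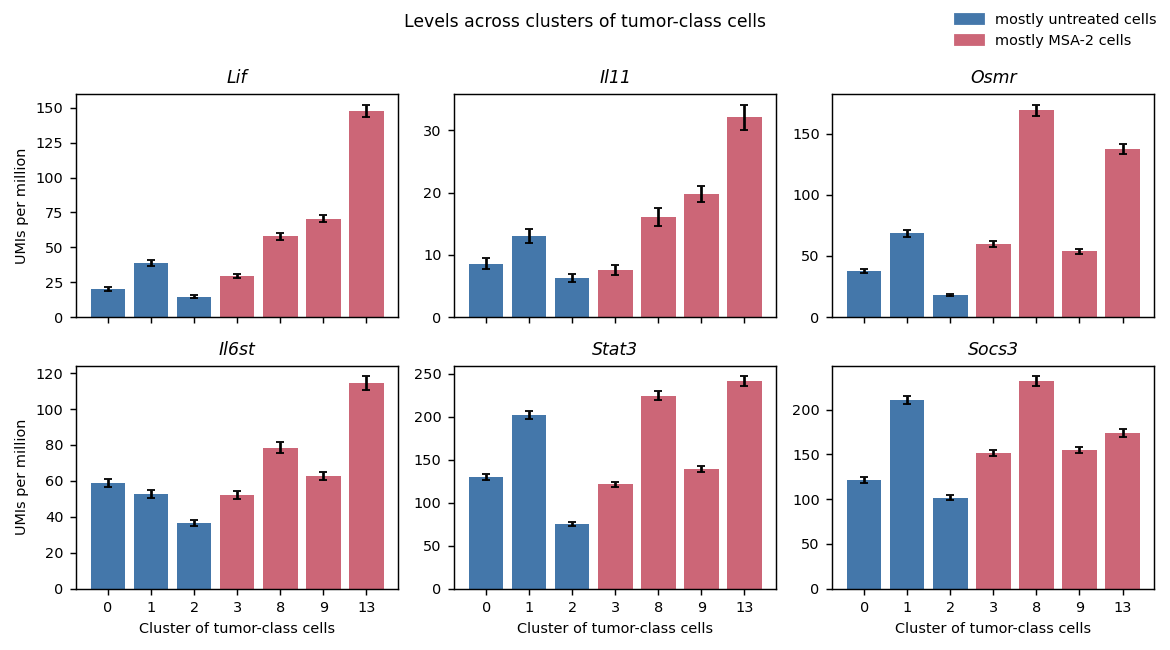
Levels of 6 members in CPM across the 7 clusters of tumor-like cells with at least 500 cells; colors give the library that supplied most of the cluster, and bars are exact 95% Poisson intervals. Lif and Il11 are highest in cluster 13 (148 and 32.1 CPM) and Osmr in cluster 8 (169 CPM).

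Other genes of the pathway were followed through a list of 47 ligands, receptors, relay genes, inhibitors and known STAT3 targets. Over all cells, 9 of 47 were at least 2-fold higher (11.1% of all genes) and 3 lower (8.38%). By role, 2 of 7 other ligands (Ctf2 and Il27) and 7 of 22 STAT3 targets were higher, while no relay gene, inhibitor or other receptor or protease was. Il27ra, Ptpn6 (the phosphatase SHP-1) and Batf were lower. The median log2 ratio was 0.27 over the STAT3 targets, -0.09 over the relay genes and 0.02 over the inhibitors, against 0.02 over all genes. In fibroblast-like cells, 12 of the 42 with enough UMIs were higher and 2 lower (Pias3 and Ptpn6), and in tumor-like cells 11 of 46 were higher. Levels of single genes are given in whichever of the 6 compared classes held most of their UMIs over both libraries together, although other classes, neutrophil-like cells among them, were not searched. Lcn2 (lipocalin-2, an acute-phase iron-siderophore binder) had 14751 of 40200 MSA-2 UMIs in fibroblast-like cells and stood there at 85.1 and 1489.6 CPM (4.13, 3.97 to 4.30). Saa3, a serum amyloid A gene, stood there at 889 and 11424 CPM (3.68, 3.63 to 3.74). Il27, a subunit of the related cytokine IL-27, with 603 of 2830 MSA-2 UMIs in macrophage-like cells, had 11.3 and 105 CPM there (3.22). In monocyte-like cells, which held more of its MSA-2 UMIs (652), it had 5.62 and 205 CPM (5.19). In macrophage-like cells the anti-inflammatory cytokine Il10 had 39.1 and 139.6 CPM (1.84). In tumor-like cells, Tnfaip3, which encodes the NF-κB inhibitor A20, stood at 31.7 and 106 CPM (1.74). There the scarce cardiotrophin-like gene Ctf2 had a log2 ratio of 1.46 (0.75 to 2.22). Jak2, a kinase that gp130 uses, was at 27.4 and 55.5 CPM in tumor-like cells (1.02), and Il11ra1, the IL-11–binding chain, at 310.0 and 211 CPM in fibroblast-like cells (-0.55, -0.66 to -0.45). These last 2 genes were named after their values were seen.

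The members did not share 1 pattern across classes. Over 14 class-by-library sums, which share their libraries, the levels of Il11 and Lif followed each other (Pearson r = 0.87 of log2(CPM + 1)), as did to a lesser degree Il6 and Osmr (0.70), while Il6 and Osm did not (-0.04). Among 17385 genes, those closest to Il6 were Htr2a (r = 0.91), Lpp (0.87) and Saa3 (0.86). Those closest to Osm were Ccr1 (0.97), Treml2 (0.97) and Cd300lf (0.97). Lif was closest to Has2 (0.93), Sh3rf3 (0.92) and Pcdh9 (0.91), and Il11 to Scara5 (0.92), Gm32219 (0.91) and Ank3 (0.91). Socs3 was closest to App (0.93), Tgm2 (0.91) and Ifnar2 (0.90).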

How the data were processed

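Single-cell suspensions of 1 untreated and 1 MSA-2 library (tumors of 3 mice pooled in each) were run with 10x Genomics 3′ chemistry. The deposited values are unnormalized UMI counts of the barcodes that the authors kept; per the submitters' processing notes they used Cell Ranger 7.0.0, Seurat 4.3.0 and mm10. Cells with at least 500 genes and at most 20% mitochondrial counts were kept, and doublets called by Scrublet (scanpy 1.11.5) were removed (5.02% and 4.42%). Classes were gated on marker rates per 10000 UMIs that used no member; the gate thresholds were set after marker levels, but not member levels, had been seen. Members and gene lists were chosen with earlier results of these data known. Counts were summed per class and library and scaled to 1000000 (CPM) with exact Poisson intervals; log2 ratios had exact conditional binomial intervals and shares exact Clopper-Pearson intervals (scipy 1.17.1). No p-value was computed. A gene was called at 2-fold or more with at least 20 UMIs over both libraries; 0 counts allow up to 3. Shares of cells were taken after thinning to 1500 UMIs, leaving out shallower cells (586 and 1325, of which 738 were MSA-2 neutrophils). Named genes were the members, listed pathway genes past 2-fold in the compared class with most of their UMIs (up to 6 each way) and the 3 closest in pattern among genes with at least 50 UMIs, over classes with at least 50 cells. Of the list, 1 pathway gene is not reported here. Alternatives were other cell filters, doublets kept, stricter gates, unsupervised clusters (Leiden, resolution 1, on 2000 variable genes without members), edgeR 4.0.16 TMM factors and equal weight per cell. The ratio function was tested on simulated counts.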

Additional observations from a re-analysis of the deposited data

Results flagged for a closer look

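For 5 members the log2 ratio, MSA-2 over untreated, lay on opposite sides of 0 in a pair of cell classes, with both counting intervals clear of 0 and at least 100 UMIs in each class and library. The difference between classes was not tested, since each condition had 1 library. The share of all genes that meet this rule is not given here, so the count is not read as particular to the family. For Osm the ratio was 0.98 in tumor-like and -1.06 in macrophage-like cells, 2.04 apart; tumor-like cells are the class set as background for Osm, and the macrophage-like value was -0.17 with monocytes joined and -1.73 with classes from clusters. For Lifr it was 1.24 in macrophage-like and -0.61 in tumor-like cells, 1.85 apart, and the tumor-like levels (1.56 and 1.02 CPM) were near or under those of T/NK-like cells (1.34 and 4.57 CPM), a background class for Lifr. For Socs3 it was 0.94 in fibroblast-like and -0.64 in macrophage-like cells, 1.58 apart. For Stat3 it was 0.54 in fibroblast-like and -0.54 in T/NK-like cells, 1.08 apart, although T/NK-like cells had 3.61 and 3.54 Stat3 UMIs per cell. For Il6ra it was 0.24 in tumor-like cells, the class set as background for Il6ra, and -0.80 in monocyte-like cells, 1.03 apart.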

How the results depend on the processing

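No paired analysis was possible because each condition had 1 library. Depth limited the classes with few cells in a library, such as untreated neutrophils, mural and endothelial cells. Values here are log2 ratios, MSA-2 over untreated, unless given as percent, and the cause of each shift was not tested. With equal weight per cell, the all-cell ratios were 3.56 for Il6, 1.55 for Il11, 1.78 for Osm, -0.31 for Il6ra, 1.45 for Osmr, 0.56 for Lifr, -0.28 for Stat3 and -0.11 for Socs3, so that Stat3 and Socs3 changed sign. In tumor-like cells that weighting gave 1.23 for Il11, 1.70 for Lif and 0.71 for Il6st, and in macrophage-like cells -0.91 for Osm. Under the stricter cell filter (at least 1000 genes, at most 10% mitochondrial), the all-cell Osm ratio was -0.35, on the other side of 0.

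With classes from clusters, Il6 was 1.99 in fibroblasts and 5.04 in monocytes, Osm -1.73 and Socs3 -0.88 in macrophages. Joining the macrophage and monocyte gates, a choice made after seeing the data, gave 5.64 for Il6 and -0.17 for Osm, and keeping gated fibroblasts inside their cluster gave 2.14 for Il6. TMM factors shifted all ratios by -0.07 in tumor-like, 0.17 in fibroblast-like, 0.14 in macrophage-like and 0.20 in monocyte-like cells. They gave 2.62 for Il6 in fibroblasts, -0.91 for Osm and -0.50 for Socs3 in macrophages, and 1.55, 0.55 and 1.27 for Lif, Il6st and Osmr in tumor-like cells. Without a cell filter and with doublets kept, Stat3 over all cells was 0.12 in both, Socs3 in macrophages -0.53 in both, and Il11 in monocytes -0.21 in both, a reversal on few UMIs.

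The Il6 share in MSA-2 fibroblasts was 56.4% by clusters and 48.8% without a filter. By clusters, neutrophils held 1.0% (untreated) and 62.1% (MSA-2) of Osm UMIs, and tumor cells 90.3% and 89.7% of Lif and 96.2% (untreated) of Il11. Without a filter, tumor cells held 83.3% and 84.9% of Lif and 87.7% and 81.1% of Il11. With 10 CPM added, 1 listed pathway gene was 2-fold lower over all cells. Of the other 353 ratios within classes, 334 kept the sign of the reported value.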
